A study of Saccharomyces cerevisiae with 177 samples.

Results

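The proteasome subunit genes of Saccharomyces cerevisiae and RPN4, the gene of their shared transcription activator, were followed across a series on the Mediator coactivator. The group was chosen by gene name: the core particle genes SCL1, PRE1 to PRE10 and PUP1 to PUP3, the regulatory particle genes RPN1 to RPN13, RPT1 to RPT6 and SEM1, and RPN4 (YDL020C). All 34 names were found among the 5794 genes of each file, and they stand for 33 subunit genes and 1 regulator. By role they are 7 alpha and 7 beta genes of the core, 6 ATPase and 4 other genes of the base, 9 genes of the lid, and RPN4. No other annotated gene overlapped a member (0 overlaps).

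The proteasome degrades proteins tagged with ubiquitin. Its core is a barrel of stacked alpha and beta rings with the proteolytic sites inside, and a regulatory particle at either end holds a base, with a ring of ATPases that unfolds the substrate, and a lid, which removes the ubiquitin. Rpn4 binds a DNA element called PACE, the proteasome-associated control element, before most subunit genes, and is itself a short-lived substrate of the proteasome, so that less proteolysis leaves more activator. In yeast, RPN4 transcription is under the stress factors Hsf1, Yap1 and the Pdr1 and Pdr3 pair.

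The series held 177 libraries in 60 groups, in which RNA made during 5 min of labelling with 4-thioU was sequenced from cells grown at 30 °C. In 22 comparisons a protein fused to an auxin degron was depleted with 3-indoleacetic acid (3IAA) and set against DMSO. In 6 a mutant strain was set against its intact control. The last 4 used Med15 degron cells and stresses labelled HS and SM, abbreviations that the labels do not spell out. In 2 of them a stress was set against no stress, both in DMSO, and in 2 IAA was set against DMSO under a stress. This experiment had no IAA group without stress, so it cannot show whether an effect of Med15 depletion depends on stress. Groups had 3 libraries (A, B, C), except Med7_EWE3, Med21_EWE4 and Med21_WT with 2, and the labels do not say that these are separate cultures, so p-values measure the spread between these libraries. The Med15_Spt7_DMSO group (Med15 and Spt7 degrons) entered no comparison.

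All strains were of mating type MATα and carried the alleles ade2 (Dade2::hisG), his3D200 (the med15del label gives only D200), leu2D0, lys2D0, met15D0, trp1D63 and ura3D0. Every strain except WT (BY4705), med15del (SHY825, Dgal11::HPH) and med16del (SHY331, Dsin4::TRP1) also carried pGPD1-OSTIR::HIS3, the plant receptor that directs a degron-tagged protein to breakdown, under the GPD1 promoter, in the DMSO controls as well. The tag was 3xV5 IAA7, marked with KanMX where no other marker is named. The strains tagged in CCL1 (SHY1057), SRB10 (SHY1073, the gene of Cdk8), MED10 (SHY1061), MED12 (SHY1085), MED1 (SHY1215), MED14 (SHY1054), MED15 (SHY1055), MED16 (SHY1056), MED5 (SHY1053) and MED7 (SHY1060) also had RPB3-3xFlag::NATMX. So did the MED17 mini-degron strain (SHY1129), the MED1 and MED5 (URA3) double strain (SHY1424) and the MED15 and MED2 (URA3) double strain (SHY1141). The strains tagged in MED19 (SHY1421), MED9 (SHY1435, mini degron), MED15 (URA3) with MED16 (SHY1460, mini degron), MED15 with TAF1 (SHY1529, LEU2) and MED15 with SPT7 (SHY1527, LEU2) lacked the RPB3 tag in their labels. The Med31 libraries (SHY1422) carry a genotype label that names the MED19 degron, and the library titles were followed.

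The Med14C strain (SHY1296) had the RPB3 and MED14 tags with pSH1936, holding MED14 (D 2-704; TID2) and LEU2, and pSH1957, holding MED14 (DTID)-mini degron and TRP1. The TID strain (SHY1208) was med14DORF::KanMX with pSH1933 (pRGR1-med14DTID, TRP1) and pSH1940 (pRGR1-med14 TID-3xV5-degron, LEU2). The other split and mutant strains had the chromosomal gene replaced by KanMX and kept it on ars cen plasmids. Med7C (SHY1428) carried pSH1989 with med7DC and pSH1990 with med7DN-mini degron. Med7N (SHY1436) carried pSH1991 with mini degron-med7DC and pSH1986 with med7DN, and med7N_del (SHY1427) pSH1986 alone. Med7_EWE3 (SHY1445, pSH1998) was set against Med7_WT (SHY1444, pSH1970), Med21_EWE4 (SHY1443, pSH2001) against Med21_WT (SHY1442, pSH1997), and Med6_delH1 (SHY1455, pSH2009, without residues 13-20 of helix 1) against Med6_WT (SHY1454, pSH2008). The stress experiment used the MED15 strain SHY1055.

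The deposited values were counts for the 15 stress libraries, with 4384651 to 10032201 counts each, and for the other 162 a value the files call signal, scaled by the authors on a basis not given in the sources used here. Whole reads could be recovered for 106 of these, with 2119071 to 10714175 reads, and the depth of the other 56 is not known. On the deposited scale nearly every gene fell in the strongest depletions. The signal comparisons were therefore fitted on this scale and again after TMM scaling, which sets the typical gene to no change. A value with TMM scaling is thus relative to the other genes. Stress comparisons had the TMM-scaled fit alone, so a shift shared by all genes does not show in their changes. Signal was tested with limma on log2(signal + 1), and stress counts with edgeR's quasi-likelihood test on TMM-scaled counts. Levels of the latter are printed as CPM, counts relative to the TMM-scaled total of a library, which differs from a plain share of its counts. Both adjusted p-values over all genes by Benjamini and Hochberg with a threshold of 0.05, and a gene that passed is said to have changed. A share of all genes given without a direction counts rises and falls together. Errors are SE for log2 changes and SD for levels. The deleted gene was nearly absent where the labels say so: GAL11 (MED15) had a signal of 0.66 to 1.05 in med15del against 78.94 to 83.2 in WT, and SIN4 (MED16) 0.13 to 0.17 in med16del against 23.45 to 25.19.

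The promoters of the subunit genes were read first, from the R64 genome and RefSeq annotation, because they show what the genes have in common before any level is compared. PACE was searched as GGTGGCAAA on both strands in the 250 bases before the start codon. It lay before 27 of the 34 genes and before 67 of all 5792 genes with a match in the annotation, which is 1.16% of promoters. Each of the 27 held exactly 1 site, between 76 and 175 bases before the start codon with a median of 112. The sites read along the gene's own strand in 19 genes and against it in 8. Windows of 29 bases are shown for 1 or more genes of each role, with PACE in capitals, written in the direction in which the element reads; RPT6 has the site nearest to its start codon and PUP3 the farthest.
PRE6, core alpha, chrXV:255218-255246, minus strand, 101 bases before the start codon: tttcccttccGGTGGCAAAagaatcttcg
PRE10, core alpha, chrXV:1018856-1018884, minus strand, 120 bases before: cctctaaatcGGTGGCAAAaataagaaag
PRE3, core beta, chrX:435035-435063, plus strand, 110 bases before: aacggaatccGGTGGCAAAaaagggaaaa
PUP3, core beta, chrV:349511-349539, minus strand, 175 bases before: tggcactgccGGTGGCAAAaaagtgcaaa
RPT6, base ATPase, chrVII:411352-411380, minus strand, 76 bases before: atgcgagcgaGGTGGCAAAagttgtaata
RPT4, base ATPase, chrXV:813802-813830, plus strand, 104 bases before: ctttcccttcGGTGGCAAAttccactatt
RPN2, base, chrIX:220801-220829, minus strand, 111 bases before: atttattttcGGTGGCAAAactggataca
RPN11, lid, chrVI:153259-153287, plus strand, 116 bases before: ggacctccaaGGTGGCAAAttcacaagaa
RPN5, lid, chrIV:190776-190804, plus strand, 130 bases before: ttgacttttcGGTGGCAAAatgcaaaggg
The strand named is that on which the element reads.

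The other 6 subunit genes each held a site that differed from the element at 1 position, counted from 1 at the first G, and they fell into a pair of sets of 3. SEM1, RPN10 and RPN13 carried the substitution A7G (the element has A and the site G). PRE5, PUP1 and RPN8 carried G1A. The windows are shown because these 6 genes are the subunits that an exact search misses.
SEM1, chrIV:1202007-1202035, plus strand, 103 bases before the start codon: tagtgctatgGGTGGCGAAcgtggtgggc
RPN10, chrVIII:498968-498996, minus strand, 93 bases before: tgtaaattccGGTGGCGAAaacccgcctg
RPN13, chrXII:965656-965684, minus strand, 106 bases before: ttattcgcgaGGTGGCGAAagctttgcta
PRE5, chrXIII:901552-901580, plus strand, 139 bases before: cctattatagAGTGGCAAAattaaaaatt
PUP1, chrXV:631891-631919, minus strand, 150 bases before: aacccggccgAGTGGCAAAataccaaaaa
RPN8, chrXV:817085-817113, minus strand, 164 bases before: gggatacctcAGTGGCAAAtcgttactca
The form GGTGGCGAA was found before 24 of all genes (0.414% of promoters) and AGTGGCAAA before 42 (0.725%). An element with at most 1 difference was thus present before all 33 subunit genes, against 380 of all promoters, or 6.56%. In RPN4 none was found in this window. With 500 bases searched, the exact element was still before 27 members, with 98 of all promoters (1.69%). The 6-letter start of the element, GGTGGC, lay before 30 members in the 250-base window and before 323 of all genes (5.58%).

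RPN4, on chromosome IV, was searched for the motifs of its own regulators in the 500 bases before its start codon, with the letters TTACTAA for Yap1, TCCGTGGA and TCCGCGGA for Pdr1 and Pdr3, and TTCNNGAA for Hsf1.
RPN4, Hsf1 letters, chrIV:416712-416739, 14 bases before the start codon: tgcttgaaaaTTCTAGAAaacttttgaa
RPN4, Hsf1 letters, chrIV:417039-417066, 341 bases before: aaacggaactTTCTAGAAccatcactgt
RPN4, Yap1 letters, chrIV:417066-417092, minus strand, 368 bases before: gtgatcgctaTTACTAAtagccgttta
RPN4, Pdr letters, chrIV:417090-417117, plus strand, 392 bases before: cacgtgattaTCCGTGGAaaggttcgta
RPN4, Pdr letters, chrIV:417133-417160, minus strand, 435 bases before: aataacaagtTCCGTGGAactcaaagaa
The windows of the sites at 341, 368 and 392 bases before the start codon overlap at their ends, and that of the site at 435 lies apart from them. The remaining site, with the same letters TTCTAGAA as the site at 341, lies at 14. Within 500 bases the Yap1 letters occurred before 11.8% of all genes, TCCGTGGA before 1.07%, TCCGCGGA (which RPN4 lacked) before 0.639% and the Hsf1 letters before 21.4%. A match describes letters only and shows no binding.

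**Figure D1:**
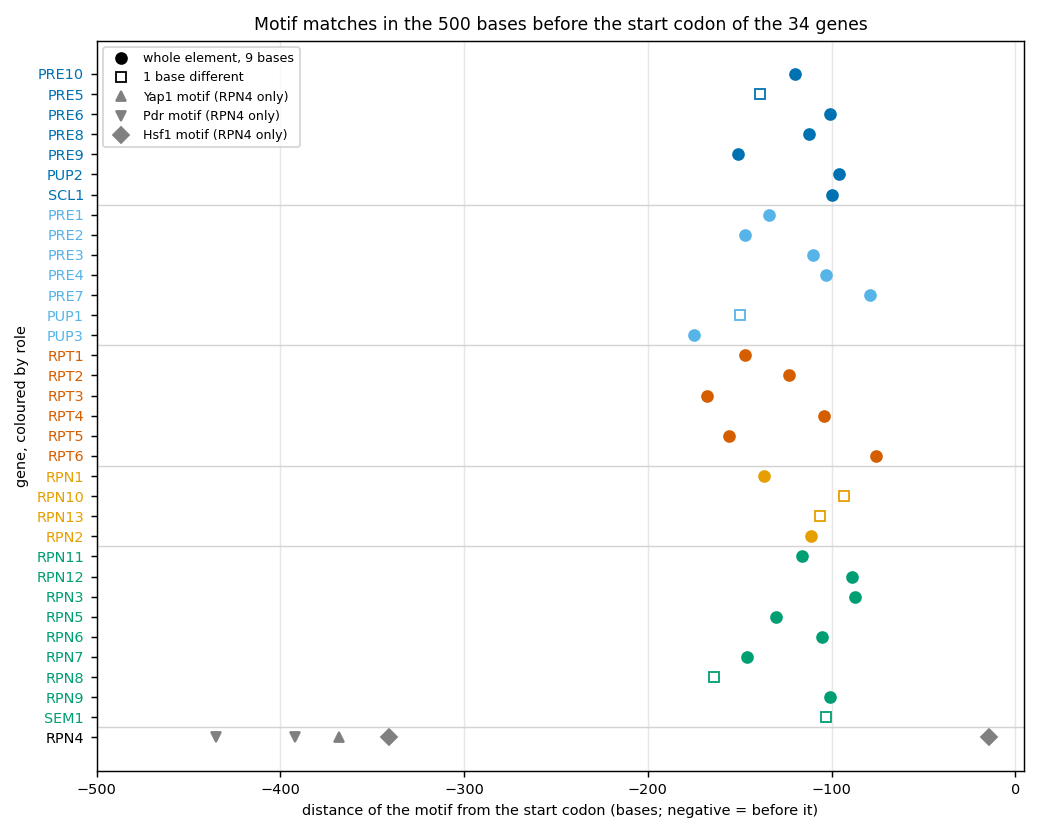
Position of each motif match, in bases before the start codon (x axis), for the 34 genes (y axis, coloured by role); filled circles are the whole PACE, open squares a PACE with 1 base different, and grey symbols the motifs searched in RPN4 alone. The 33 subunit genes each have 1 symbol between 76 and 175 bases, and RPN4 has none there.

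Outside the group, 40 genes held the exact element in the 250-base window, and for 7 of these it was the very site that lies before a subunit gene. Several belong to protein breakdown: UBI4, which encodes polyubiquitin, UBA1, the ubiquitin-activating enzyme, CDC48, the ATPase that extracts ubiquitin-tagged proteins, and ECM29, which binds the proteasome. Their changes stand beside those of the subunits in the HS section.

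The subunit genes were transcribed at like levels for their length, with a few exceptions. In WT their median was 24.61 signal units per kb of coding length against 6.873 for all genes, and over the 28 control groups the subunit median was 2.735 to 4.371 times the median of all genes. Signal per kb was within 2-fold of the group's median subunit for 27 of 33 subunits, taken as the median over control groups. SEM1 (YDR363W-A), a lid subunit, was the highest at 5.652 times the median subunit (range 1.572 to 7.131). It has the shortest coding region of the group, 270 bases, and the part that this length plays in its value was not tested. The lowest were RPN8, a lid subunit, at 0.4145 and RPN12, another, at 0.4474, then the ATPase RPT6 at 0.4604, PRE3 at 0.4919, which carries the caspase-like active site, and the ATPase RPT5 at 0.4944.

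By role, the median ratio per kb was 1.359 for the ATPases, 1.142 for the beta genes, 1.061 for the alpha genes, 0.9203 for the lid and 0.8066 for the other base genes. The ATPases were themselves split, with RPT1, RPT2, RPT3 and RPT4 at 1.333 to 1.492 and RPT5 and RPT6 near 0.5 as given above. RPN4 had a median ratio of 1.073, inside the range of the subunits, but varied between control groups from 0.3204 to 1.878. In WT it stood at 27.38 ± 2.264 signal units per kb (SD, n = 3), between RPN11 at 25.9 ± 1.478 and RPN5 at 29.83 ± 1.568. Neighbours in this order had ranges over control groups that overlapped throughout, SEM1 and the next gene, PRE6, included.

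**Figure D2:**
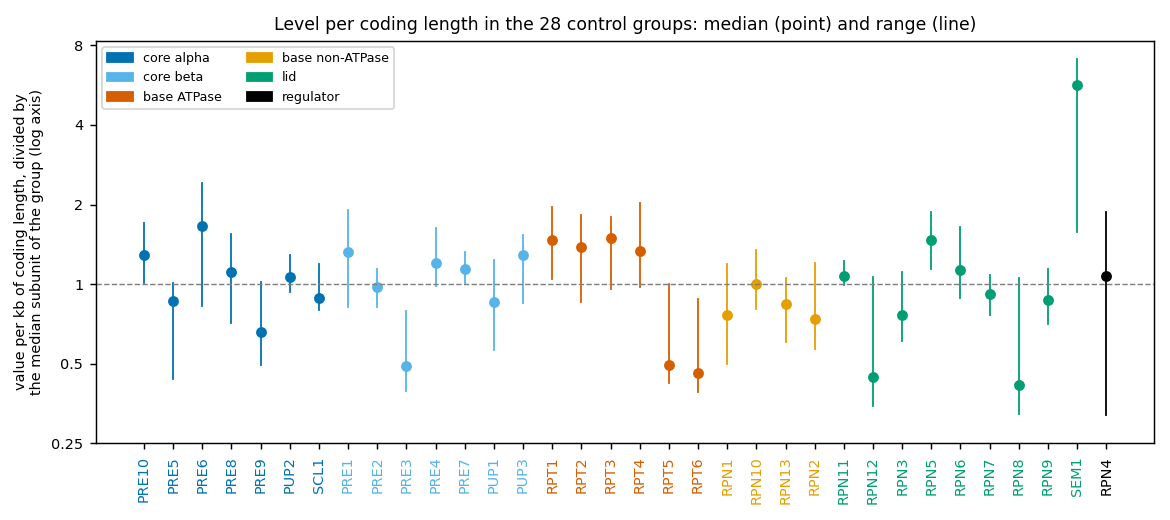
Level per kb of coding length in the 28 control groups, divided by the median subunit of each group (y axis, log scale), for each gene (x axis, coloured by role); points are medians and lines the range over groups. SEM1 stands above the rest with a median of 5.652, and the line of RPN4 runs from 0.3204 to 1.878.

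As a share of all signal in a library, the 33 subunit genes together held 0.942% ± 0.01 in WT (SD, n = 3), and RPN4 0.0497% ± 0.0024. The lowest share of a control group was in Med7_WT, 0.798% ± 0.0117, and that of RPN4 in Med7_DMSO, 0.0162% ± 0.0015. In bulk RNA, fewer cells making an RNA and less RNA per cell cannot be told apart.

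The stress labelled HS raised every subunit gene. In Med15 degron cells given DMSO, all 33 subunits rose under HS against the no-stress libraries, by a median of 1.06 on the log2 scale, or 2.08-fold, with a range of 0.65 to 1.34, while the median of all genes was -0.004. Of all genes tested with edgeR, 36.9% rose. The share of counts in subunit genes went from 0.905% ± 0.0027 to 1.69% ± 0.0431 (SD, n = 3 each). All 33 had their 3 HS libraries above the 3 no-stress libraries.

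The steepest were alpha ring genes. PRE6 (YOL038W) had 323.6, 334.5 and 315.1 CPM without stress and 821.0, 778.8 and 859.8 CPM under HS. It rose by 1.34 ± 0.06 (adjusted p = 3.32e-12, edgeR). PRE5 went from 158.8, 159.8 and 149.6 CPM to 353.7, 352.1 and 405.3, a log2 change of 1.24 ± 0.068. PRE10 and SCL1 followed with 1.24 ± 0.066 and 1.20 ± 0.07. PRE5 carries the G1A form of the element and the other 3 the exact one, so the top of the order held both forms.

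The smallest rise was in RPN13, a ubiquitin receptor, from 124.1, 128.7 and 123.3 CPM to 201.6, 188.1 and 199.6, or 0.65 ± 0.069 on the log2 scale (adjusted p = 1.33e-07, edgeR). RPN11, the deubiquitinase of the lid, rose by 0.81 ± 0.054, from 280.8, 271.5 and 271.1 CPM to 487.6, 487.7 and 469.2. RPT4 rose by 0.82 ± 0.058 and RPN3, a lid scaffold subunit, by 0.83 ± 0.056. By role the median log2 change was 1.20 for alpha, 1.06 for beta, 1.00 for the ATPases, 0.98 for the other base genes and 0.92 for the lid. The 27 subunits with the exact element had a median log2 change of 1.06 and the 6 with 1 base different 1.04, a difference that was not tested.

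RPN4 itself was not raised. It had 460.1, 465.8 and 443.2 CPM without stress and 346.7, 441.2 and 440.9 CPM under HS, all HS libraries below all controls. The log2 change was -0.16 ± 0.081 (adjusted p = 0.0864, edgeR). Library A was the lowest of the 3. Single libraries decide this call: without HS replicate B the change was -0.22 and without replicate C -0.21, and both passed, while without replicate A it was -0.03.

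Related genes of protein breakdown moved in the same libraries. Of 10 assembly chaperones 9 rose and 0 fell, with TMA17, which helps to build the base, highest at 1.52 ± 0.112. Of 6 proteasome-associated genes 5 rose, led by ECM29 at 1.71 ± 0.079, and STS1, which localises the proteasome, fell by 0.23. All 11 ubiquitin genes rose, with UBI4 at 2.60 ± 0.104, and all 7 shuttle factor and Cdc48 genes rose, with DSK2 at 1.27 ± 0.065. The medians of these 4 lists were 0.55, 0.84, 0.46 and 1.06. Among the regulators of RPN4, HSF1, YAP1 and PDR1 rose, PDR1 by 0.40 ± 0.068, and PDR3 fell by 0.69 (SE 0.072).

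The other 40 genes with the exact element were more mixed than the subunits, 34 higher and 3 lower with a median of 0.82. Their range ran from -0.56 for NOP14, which shares a subunit gene's site, to 2.71 for SDH9. Without the 7 that share a subunit's site, 29 of 33 were higher and 2 lower, with a median of 0.84. UBA1 rose by 1.07 ± 0.063, CDC48 by 1.24 ± 0.059, ECM29 by 1.71 ± 0.079 and UBI4 by 2.60 ± 0.104, against a subunit median of 1.06.

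The stress labelled SM had a small effect in the other direction. Of the 34 genes 13 fell, 0 rose, and the median subunit log2 change was -0.14, while 26.2% of all genes fell. Without Med15_DMSO_SM replicate C the count was 7. PRE6 was again at the end of the order, with 246.1, 275.4 and 267.2 CPM against 323.6, 334.5 and 315.1, a log2 change of -0.31 ± 0.06 (adjusted p = 0.000362, edgeR). RPN9, a lid subunit, followed at -0.29 ± 0.054, RPN10, a ubiquitin receptor, at -0.29 ± 0.063, and PRE10 at -0.28 ± 0.066.

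The subunits at the upper end under SM did not pass: RPN6, which joins the lid to the core, and RPN1, the docking site of shuttle factors, both had 0.03, RPN5 -0.01 and RPN2 -0.03. RPN4 had 403.1, 442.5 and 465.4 CPM, overlapping its controls, and a log2 change of -0.06 ± 0.08 (adjusted p = 0.524, edgeR). The subunit share was 0.788% ± 0.0201. Of all genes 26.4% rose under SM. Among related lists, 1 assembly chaperone rose (ADD66, 0.29 ± 0.08) and 3 fell (lowest TMA17 at -0.31 ± 0.116), 2 proteasome-associated genes rose (highest HUL5, 0.41 ± 0.073), 3 ubiquitin genes rose (UBR1, 0.24 ± 0.06) and 2 fell (UBC4, -0.47 ± 0.076), and 4 of 7 shuttle and Cdc48 genes fell (lowest SHP1 at -0.35 ± 0.07). No regulator of RPN4 was called in either direction by edgeR (0 higher, 0 lower).

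Since HS and SM share the no-stress libraries, the stressed libraries were compared directly. All 33 subunits were higher in HS than in SM, with a median log2 difference of 1.18 (2.27-fold) and a range from 0.87 ± 0.055 in RPN3 to 1.64 ± 0.06 in PRE6. Of all genes 38.9% were higher. RPN4 had a difference of -0.09 ± 0.08 (adjusted p = 0.294, edgeR).

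**Figure D3:**
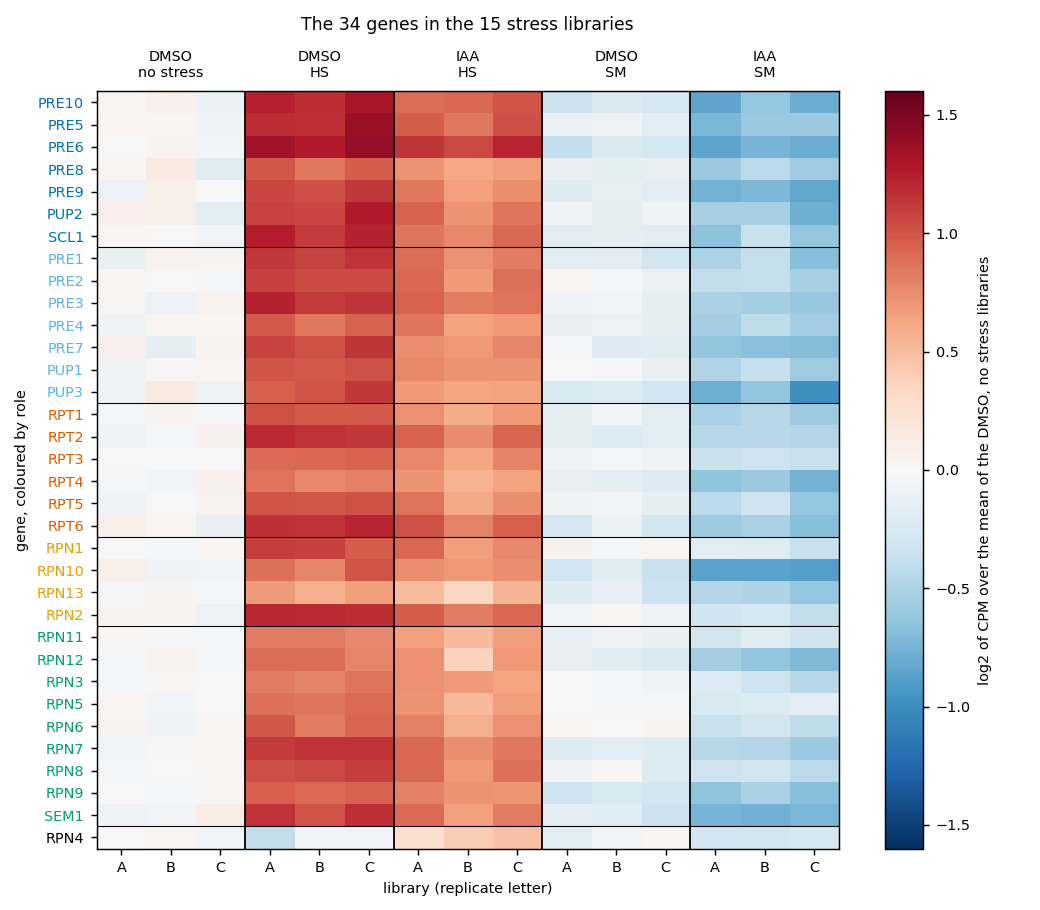
The 34 genes (rows, coloured by role) in the 15 stress libraries (columns), as log2 of CPM over the mean of the no-stress libraries. The HS columns are red for every subunit and pale for RPN4 in DMSO, and the IAA columns under SM are the bluest.

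Relative to other genes, depleting Med15, the main activator target in the Mediator tail, lowered every subunit gene under either stress. Under HS all 33 fell, with a median log2 change of -0.27 (1.20-fold lower) and a range from -0.38 to -0.16, against a median of 0.013 for all genes, of which 19.1% fell. PUP3 (YER094C), a beta gene, had 483.6, 499.3 and 544.8 CPM in DMSO and 399.2, 384.4 and 388.3 in IAA, a log2 change of -0.38 ± 0.074 (adjusted p = 0.000523, edgeR). SCL1 fell by 0.35, PRE7 by 0.34 and PRE9 by 0.33. The smallest falls were those of RPN3 (-0.16 ± 0.054), RPN10 (-0.17 ± 0.061), RPT4 (-0.17 ± 0.057) and RPN13 (-0.18 ± 0.067), which also passed. In 32 of the 33 the IAA and DMSO libraries did not overlap in CPM. As a plain share of counts the fall was smaller. The subunit share was 1.59% ± 0.0876 with IAA and 1.69% ± 0.0431 with DMSO. By this measure the libraries overlapped, at 1.49% to 1.66% with IAA and 1.65% to 1.74% with DMSO. The share with IAA was still above the 0.905% of the no-stress libraries.

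RPN4 went the other way under HS. Its 3 libraries with Med15 depleted had 545.6, 602.4 and 629.2 CPM against 346.7, 441.2 and 440.9, with no overlap. The log2 change was 0.53 ± 0.08 (adjusted p = 3.61e-05, edgeR), and 15.8% of all genes rose.

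Under SM all 33 subunits fell with IAA, with a median log2 change of -0.38 (1.30-fold lower), from -0.60 to -0.17, against -0.037 for all genes, of which 27.1% fell. PRE9 (YGR135W), an alpha gene that yeast can live without, had 142.4, 150.2 and 145.2 CPM in DMSO and 97.46, 99.95 and 92.27 in IAA, or -0.60 ± 0.065 (adjusted p = 5.7e-07, edgeR). RPN10 had 208.9, 224.8 and 201.0 CPM and then 142.9, 141.9 and 139.4, or -0.58 ± 0.064. PUP3 and PRE7 followed at -0.53 ± 0.078 and -0.52 ± 0.065. RPN11 at -0.17 ± 0.054, RPN5 at -0.21 ± 0.054, RPN8 at -0.27 ± 0.071 and RPN1 at -0.27 ± 0.066 fell least. No subunit's DMSO and IAA libraries overlapped. By role the median was -0.49 for alpha, -0.42 for beta, -0.36 for the ATPases, -0.31 for the lid and -0.30 for the other base genes.

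Relative to other genes RPN4 fell under SM as the subunits did, from 403.1, 442.5 and 465.4 CPM to 368.1, 371.2 and 378.7. The log2 change was -0.23 ± 0.08 (adjusted p = 0.024, edgeR). The call was lost without IAA replicate A (-0.22), IAA replicate B (-0.22), DMSO replicate B (-0.22) or DMSO replicate C (-0.18). As a plain share of counts RPN4 had 0.0423% ± 0.0028 with DMSO and 0.0396% ± 0.0009 with IAA (SD), and the libraries overlapped.

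The difference between the effects of Med15 depletion under the 2 stresses was tested directly. RPN4 differed by 0.76 ± 0.113 (adjusted p = 7.27e-05, edgeR), with its effect higher under HS. Among subunits 4 differed, all with a smaller fall under HS: RPN10 by 0.41 ± 0.088, RPT4 by 0.33, PRE6 by 0.29 and PRE9 by 0.27. The lowest was RPN5 at -0.04 ± 0.076, which did not pass, and the median over subunits was 0.14. Of all genes 14.5% differed in this direction. The 4 called subunits are 4 of 33.

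Among related genes with Med15 depleted under HS, 7 of 11 ubiquitin genes fell (lowest UBA1, -0.39 ± 0.062), 4 of 7 shuttle and Cdc48 genes fell (lowest CDC48, -0.40 ± 0.058), 2 of 6 proteasome-associated genes fell (lowest BLM10, -0.32 ± 0.071), and among assembly chaperones RPN14 rose by 0.36 ± 0.069 and UMP1, which matures the core, fell by 0.28. YAP1 fell by 0.26 and was the lowest of the RPN4 regulators, of which 2 fell. Under SM, where 21% of all genes rose, 5 of 7 shuttle and Cdc48 genes fell (lowest DSK2, -0.53 ± 0.065). Among ubiquitin genes UBC5 was highest at 0.47 ± 0.087 and UBC4, its near relative, lowest at -0.47 ± 0.077. HUL5 rose by 0.31 ± 0.071. Among assembly chaperones NAS6 was highest at 0.31 ± 0.12 and POC4 lowest at -0.48 ± 0.171. PDR3 rose by 0.32 ± 0.068 and YAP1 fell by 0.14.

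The 6 depletions with the strongest fall of the median gene lowered all 34 genes on the deposited scale, and RPN4 less than any subunit. Ccl1 is the cyclin partner of the TFIIH kinase. With Ccl1 depleted, 34 of 34 fell, and 99.9% of all genes changed. The median log2 change was -2.76 for subunits and -2.18 for all genes. Relative to other genes (TMM scaling) the subunits had a median of -0.55 with 31 lower, and 74.7% of all genes changed. Of all genes 37.9% were lower and 36.8% higher on this scale. The subunit share of the library was 0.725% ± 0.0246 with 3IAA and 1.08% ± 0.013 with DMSO (SD, n = 3).

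SEM1 was the steepest gene of the Ccl1 comparison, with a signal of 147.4, 164.4 and 164.2 in DMSO and 8.57, 9.01 and 8.32 in 3IAA, a log2 change of -4.05 ± 0.08 on the deposited scale and -1.87 ± 0.062 with TMM scaling. PUP3 went from 93.21, 100 and 85.37 to 6.92, 8.38 and 8.02, or -3.42 ± 0.093. RPN13 and RPT1 had -3.14 ± 0.092 and -3.14 ± 0.079. The least changed was RPN5, from 163.3, 183.1 and 167.6 to 31.82, 35.43 and 38.74, with -2.25 ± 0.089 on the deposited scale and -0.01 ± 0.07 with TMM scaling (adjusted p = 0.945, limma). PRE7, RPN3 and PRE6 were next, at -2.30, -2.44 and -2.45. RPN4 had 134.8, 136.3 and 139.1 in DMSO and 43.54, 40.13 and 48.66 in 3IAA. That was a fall of 1.61 (SE 0.085) on the deposited scale and a rise of 0.63 ± 0.086 with TMM scaling, above every subunit on either scale.

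Med14 is the backbone that joins the Mediator modules. With Med14 depleted, all 34 genes fell on the deposited scale (99.8% of all genes changed), with a median log2 change of -2.23 for subunits and -1.96 for all genes. With TMM scaling 14 subunits were lower and 0 higher, with a median of -0.22 (57.2% of all genes changed, 28.6% lower and 28.6% higher). SEM1 went from 47.82, 37.6 and 45.86 to 5.01, 3.22 and 3.76, or -3.17 ± 0.17 on the deposited scale. PRE3 (-2.56 ± 0.175), RPT1 (-2.52 ± 0.164) and PRE1 (-2.50 ± 0.164) followed. The upper end was PRE5 (-1.79 ± 0.174), PRE6 (-1.85 ± 0.156), PUP3 (-1.87 ± 0.158) and PUP1 (-1.91 ± 0.162). RPN4 had 72.6, 74.36 and 91.06 in DMSO and 29.47, 25.09 and 25.37 in 3IAA, -1.54 ± 0.167 deposited and 0.49 ± 0.09 with TMM scaling (adjusted p = 0.00173, limma).

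In the Med14C strain all 34 fell on the deposited scale (4220 of 4220 genes changed, or 100%), with a subunit median of -2.02, the lowest in SEM1 (-2.53 ± 0.078) and the highest in RPN12 (-1.66 ± 0.084). With TMM scaling 23 subunits were lower and 0 higher (65.5% of all genes changed, 1395 of 4220 lower and 1367 higher). RPN4 had 271.6, 293.0 and 284.3 in DMSO and 117.8, 124.0 and 110.6 in 3IAA, which is -1.26 ± 0.079 deposited and 0.60 ± 0.046 with TMM scaling.

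Med10, a middle module subunit, gave a like picture. All 34 fell on the deposited scale (99.9% of all genes changed), with a subunit median of -2.37 against -2.13 for all genes. With TMM scaling 22 subunits were lower and RPN12 alone higher, by 0.22 ± 0.089 (adjusted p = 0.0441, limma), with overlapping libraries. On this scale 72.7% of all genes changed, 36.6% lower and 36.1% higher. SEM1 went from 187.3, 196.0 and 188.2 to 22.86, 24.0 and 23.53 (-2.97 ± 0.055). PRE3 had -2.81 ± 0.079, RPN10 -2.68 ± 0.075 and RPT1 -2.66 ± 0.058, and at the upper end RPN12 had -1.90, RPN8 -1.99, PUP3 -2.01 and RPN5 -2.11. RPN4 had 207.4, 235.0 and 213.1 in DMSO and 76.64, 90.08 and 87.55 in 3IAA, that is -1.36 ± 0.069 deposited and 0.83 ± 0.065 with TMM scaling.

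With Med17, the core of the head module, depleted, all 34 fell on the deposited scale (99.8% of all genes changed), with a subunit median of -1.78 against -1.66. With TMM scaling 7 subunits were lower and 1 higher, and 54.9% of all genes changed, 28.6% lower and 26.3% higher. The higher subunit was PRE7, at 0.28 ± 0.09 with overlapping libraries. With the replicate letter as a block, which pairs these libraries, 14 of 34 genes changed instead of 9. SEM1 (-2.32 ± 0.1), PRE3 (-2.08 ± 0.11), PRE1 (-1.94 ± 0.09) and RPT1 (-1.94 ± 0.092) were lowest on the deposited scale and PRE7 (-1.40 ± 0.098), RPN12 (-1.51 ± 0.1), PRE6 (-1.52 ± 0.091) and PRE8 (-1.55 ± 0.096) highest. RPN4 had 183.9, 178.2 and 226.8 in DMSO and 140.2, 136.9 and 133.6 in 3IAA, a log2 change of -0.51 ± 0.098 deposited and 1.20 ± 0.091 with TMM scaling (adjusted p = 1.04e-06, limma). This is a shallow fall where the median subunit fell 3.43-fold.

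Depletion of Med15 together with Taf1, the scaffold of TFIID, lowered the subunits less than the median gene. All 34 fell on the deposited scale (4687 of 4688 genes changed, or 100%), with a median log2 change of -2.35 for subunits against -2.499 for all genes. With TMM scaling 24 subunits were higher and 3 lower, with a median of 0.21 (74.9% of all genes changed, 36.4% higher and 38.5% lower). The share of the library was 1.04% ± 0.0108 with 3IAA and 0.966% ± 0.0104 with DMSO. RPT4 and RPN5 were at the top with 0.50 ± 0.05 and 0.50 ± 0.045 after TMM scaling (-2.07 and -2.08 deposited), followed by PUP1 and RPT5 with 0.46 and 0.43 (-2.09 and -2.11 deposited). The 3 lower genes were SEM1 (-0.75 ± 0.059), PRE3 (-0.25 ± 0.089, libraries overlapping) and PRE1 (-0.15 ± 0.052). These 3 and RPN11 were also the lowest on the deposited scale, at -3.31, -2.74, -2.70 and -2.59. SEM1 went from 309.4, 292.2 and 283.9 to 32.76, 27.5 and 26.87.

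RPN4 in the Med15 and Taf1 strain had 375.3, 372.1 and 389.6 in DMSO and 157.8, 164.9 and 153.3 in 3IAA. Its log2 change was -1.25 ± 0.08 deposited and 1.33 ± 0.064 with TMM scaling (adjusted p = 1.03e-09, limma), the highest of the 28 signal comparisons on the latter.

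With Med15 alone depleted, no change of the group passed in the main fits. The SE on the deposited scale was near 0.2, so small changes could go uncalled. None of 34 genes was called by limma on either scale (0 and 0), while 5.11% of all genes were called on the deposited scale and 8.93% with TMM scaling. With the replicate letter as a block, which pairs these libraries, 4 genes changed under TMM scaling and 0 on the deposited scale. The subunit medians were -0.04 and -0.10, with 27 and 29 of 33 subunits negative. PRE5 (-0.23 ± 0.2), RPN2 (-0.18 ± 0.194), PRE4 (-0.18 ± 0.194) and PRE7 (-0.17 ± 0.194) were lowest on the deposited scale, and RPN13 (0.23 ± 0.201), SEM1 (0.15 ± 0.199), RPN11 (0.12 ± 0.192) and PUP3 (0.10 ± 0.197) highest. RPN4 had 56.86, 48.24 and 40.82 in DMSO and 44.38, 57.01 and 44.33 in 3IAA, overlapping throughout (0.00 ± 0.194 deposited).

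The differences between depletions were tested as such. Against Med15 alone, Med15 with Taf1 differed in 34 of 34 genes on the deposited scale (99.8% of all genes), from -3.45 ± 0.217 in SEM1 to -2.004 ± 0.199 in PRE4. With TMM scaling 18 subunits were higher and 1 lower (49.0% of all genes), and RPN4 differed by -1.25 ± 0.2 deposited and 1.39 ± 0.115 with TMM scaling. Med14 against Med15 differed in all 34 deposited (99.5%), from -3.32 ± 0.267 in SEM1 to -1.56 ± 0.275 in PRE5. With TMM scaling 8 of 34 differed (35.6%), RPN4 by 0.54 ± 0.13 and SEM1 by -1.42 ± 0.251. That count was 5 without Med14_DMSO replicate A, Med14_DMSO replicate C or Med15_DMSO replicate B, 3 without Med15_3IAA replicate A and 4 without Med15_3IAA replicate C.

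**Figure D4:**
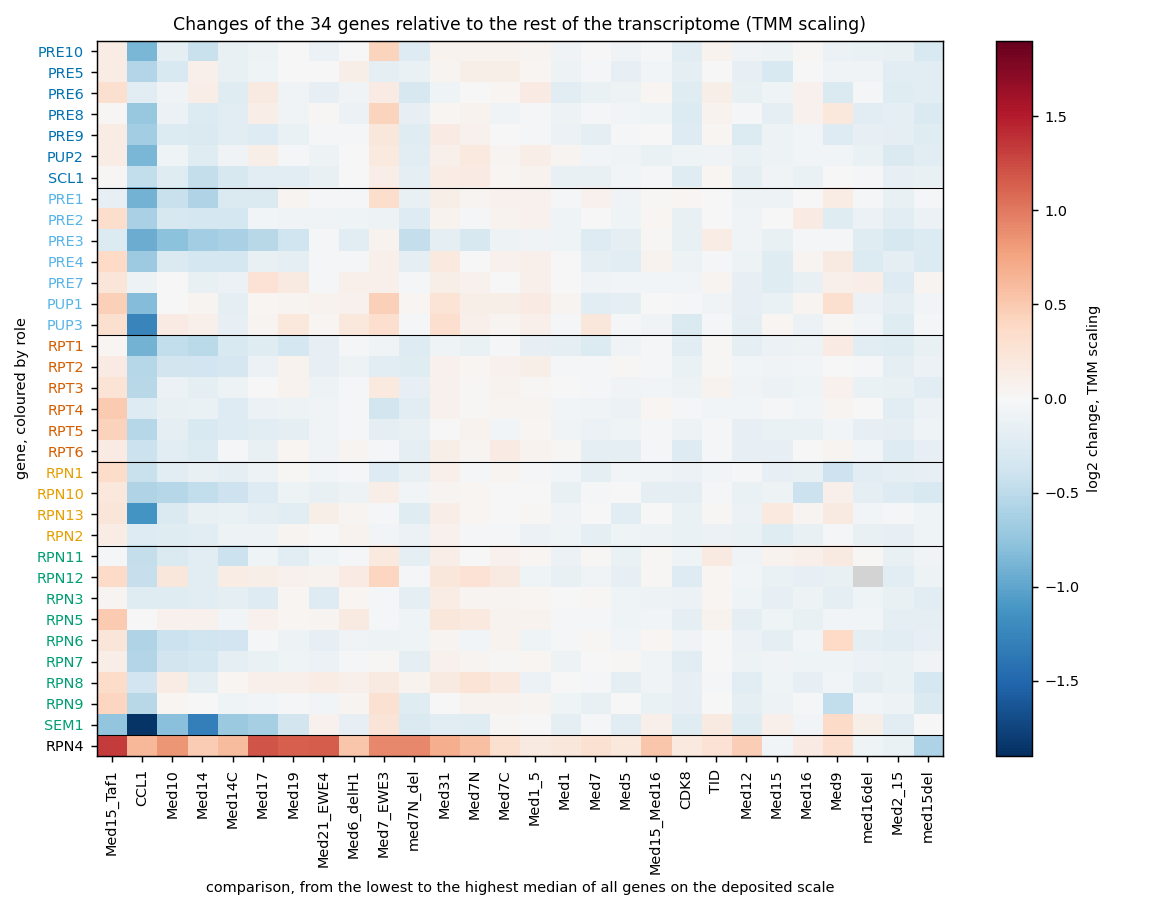
Log2 change with TMM scaling (colour) of the 34 genes (rows, coloured by role) in the 28 signal comparisons (columns, from the strongest fall of the median gene on the left); grey marks the gene not tested. The bottom line, RPN4, is red at the left, where SEM1 is blue in all 6 of the leftmost comparisons, down to -1.87 for Ccl1.

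Depletion of Med19 or Med31 shifted the median subunit about as far as the median gene. With Med19 depleted, 33 subunits fell on the deposited scale (98.2% of all genes changed), with a median of -1.27 against -1.23, from -1.61 ± 0.147 in SEM1 to -1.04 ± 0.148 in PUP3. With TMM scaling 9 of 34 genes changed (41.0% of all genes), 2 subunits up and 6 down, and the count was 5 without any 1 of Med19_DMSO replicates A, B and C. RPN4 had 144.1, 166.2 and 164.7 in DMSO and 155.7, 147.1 and 131.6 in 3IAA. The libraries overlapped on the deposited scale, with a change of -0.13 ± 0.148, against 1.13 ± 0.081 with TMM scaling (adjusted p = 3.63e-07, limma).

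With Med31 depleted, 33 subunits fell on the deposited scale (97.6% of all genes changed) with a median log2 change of -0.76, against -0.83 for all genes, from -1.05 ± 0.099 in SEM1 to -0.52 ± 0.103 in PUP3. With TMM scaling 4 subunits and RPN4 were higher and 0 lower (38.3% of all genes changed), a count of 5 that was 2 without Med31_DMSO replicate C. RPN4 had 181.7, 176.5 and 169.9 in DMSO and 161.4, 149.9 and 158.7 in 3IAA, or -0.17 ± 0.083 deposited (adjusted p = 0.0593, limma) and 0.68 ± 0.056 with TMM scaling. The fall in RPN4 passed without Med31_3IAA replicate A (-0.19). Med19 against Med31 differed in 31 subunits on the deposited scale (48.1% of all genes), with 16 without Med19_DMSO replicate A, 17 without Med19_DMSO replicate B, 19 without Med31_3IAA replicate A and 16 without Med31_DMSO replicate C. The range was -0.77 ± 0.176 in PRE4 to -0.35 ± 0.177 in PRE7, and 4 genes differed with TMM scaling (16.0%), among them RPN4 by 0.43 ± 0.104.

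The parts of Med7, a middle subunit, were depleted apart. With Med7C, all 34 genes fell on the deposited scale (95.4% of all genes changed), with a subunit median of -0.47 and a range of -0.60 ± 0.12 in PRE3 to -0.33 ± 0.108 in RPN8. With TMM scaling RPN4 alone was called (24.0% of all genes changed). It had 228.0, 223.2 and 226.6 in DMSO and 195.6, 174.4 and 214.1 in 3IAA, -0.22 ± 0.098 deposited and 0.30 ± 0.074 with TMM scaling. The deposited call was lost without 3IAA replicate B (-0.14) or without DMSO replicate A (-0.21), B (-0.23) or C (-0.22), and the TMM call without DMSO replicate A (0.28). With the letters as a block, which pairs these libraries, RPN4 and RPN8 were called with TMM scaling, a count of 2.

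With Med7N, all 34 fell on the deposited scale (99.4% of all genes changed), with a subunit median of -0.77, from -1.09 ± 0.113 in PRE3 to -0.52 ± 0.11 in RPN12. With TMM scaling 4 subunits were higher and 3 lower (41.1% of all genes changed), with the same 2 genes at the ends, PRE3 at -0.30 ± 0.09 and RPN12 at 0.28 ± 0.076. RPN4 had 209.3, 198.1 and 200.1 in DMSO and 176.7, 170.2 and 160.5 in 3IAA, or -0.26 ± 0.101 deposited and 0.58 ± 0.049 with TMM scaling, and the former was lost without 3IAA replicate C (-0.22). Med7N against Med7C differed in 11 subunits deposited (32.1% of all genes), from -0.55 ± 0.142 in SEM1 to -0.16 ± 0.141 in PUP2, and in 0 with TMM scaling (6.86%). The count of 11 rests on single libraries: it was 1 without Med7N_DMSO replicate A, Med7C_3IAA replicate A or Med7C_DMSO replicate C, 2 without Med7N_3IAA replicate B, Med7N_3IAA replicate C or Med7N_DMSO replicate B, 7 without Med7C_DMSO replicate B, 18 without Med7N_3IAA replicate A, 19 without Med7C_3IAA replicate B and 20 without Med7N_DMSO replicate C.

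With whole Med7 depleted, 0 of 34 genes were called by limma on either scale (9.21% of all genes deposited, 7.13% with TMM scaling). The count was 2 without Med7_DMSO replicate A and 3 without Med7_DMSO replicate C. RPT1 was lowest at -0.44 ± 0.176 and PUP3 highest at 0.03 ± 0.185. RPN4 had 41.29, 35.44 and 31.85 in DMSO and 38.72, 40.92 and 36.59 in 3IAA, 0.10 ± 0.184 deposited.

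Of the kinase module depletions, that of Med12 changed RPN4 on both scales. With Med12 depleted, RPN4 was the only gene of the 34 called on the deposited scale (17.4% of all genes changed). It had 113.0, 96.23 and 107.3 in DMSO and 164.0, 146.9 and 146.2 in 3IAA, without overlap, or 0.53 ± 0.08 deposited (adjusted p = 0.000805, limma) and 0.46 ± 0.066 with TMM scaling. Subunits ran from -0.20 ± 0.094 in PRE9 to 0.04 ± 0.086 in RPN1, and with TMM scaling PRE9 was also called, at -0.27 ± 0.083 (24.1% of all genes changed). That count of 2 was 1 without Med12_3IAA replicate A or replicate B and 4 without Med12_DMSO replicate C. With Cdk8 depleted, 0 genes were called on the deposited scale (12.5% of all genes) and 8 subunits were lower with TMM scaling (18.7%). PUP3 was lowest, at -0.29 ± 0.101 deposited and -0.28 ± 0.077 with TMM scaling, and PRE1 highest at 0.03 ± 0.102. The counts varied with the libraries: 4 on the deposited scale without CDK8_3IAA replicate A or CDK8_DMSO replicate C, and with TMM scaling 3 without CDK8_3IAA replicate B, 0 without CDK8_3IAA replicate C, 4 without CDK8_DMSO replicate A and 2 without CDK8_DMSO replicate B. RPN4 had 192.7, 170.7 and 188.4 in DMSO and 216.9, 193.4 and 214.9 in 3IAA, just apart from each other, with 0.18 ± 0.079 (adjusted p = 0.176, limma). With TMM scaling it was 0.24 and passed without CDK8_DMSO replicate C.

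Among tail depletions, Med15 with Med16 changed RPN4 but 0 subunits on the deposited scale (27.1% of all genes changed). RPN4 had 198.5, 207.5 and 165.7 in DMSO and 283.5, 275.4 and 248.7 in 3IAA, or 0.50 ± 0.124 (adjusted p = 0.000476, limma) and 0.53 ± 0.052 with TMM scaling. The ends were RPN10 at -0.20 ± 0.122 and SEM1 at 0.07 ± 0.126. RPN10 was also called with TMM scaling (-0.17 ± 0.059, 42.8% of all genes changed). The letters pair these libraries, and with them as a block RPN10 was called on the deposited scale too, a count of 2 on each scale. The TMM count was 1 without Med15_Med16_3IAA replicate A, B or C or Med15_Med16_DMSO replicate A or C, and the deposited count was 2 without Med15_Med16_DMSO replicate C. Against Med15 alone, RPN4 differed by 0.50 ± 0.223 deposited (adjusted p = 0.188, limma, with 0 members and 7.76% of all genes called) and by 0.60 ± 0.106 with TMM scaling (adjusted p = 0.00274, with 15.4% of all genes). PRE4, at 0.21 ± 0.221 deposited, was called with TMM scaling at 0.32 ± 0.094. RPN13 was lowest at -0.27 ± 0.227. The TMM count of 2 was 1 without any of the Med15_Med16 libraries, Med15_3IAA replicate B, or Med15_DMSO replicate A or C.

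With Med16 alone 0 genes were called deposited (2.34% of all genes) and RPN10 with TMM scaling, at -0.40 ± 0.077 (5.69%). That call was lost without Med16_3IAA replicate A or B or Med16_DMSO replicate A or B, and 1 gene was called on the deposited scale without Med16_DMSO replicate C and, since the letters pair these libraries, RPN10 with the block. The range was -0.34 ± 0.176 in RPN10 to 0.22 ± 0.18 in PRE2. RPN4 had 216.9, 219.3 and 217.1 in DMSO and 248.2, 239.8 and 273.2 in 3IAA, above without overlap, and 0.22 ± 0.186 did not pass. RPN10 was thus the lowest subunit in both depletions of Med16.

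With Med2 and Med15 depleted, 0 genes were called on the deposited scale (48.0% of all genes changed) and 6 subunits were lower with TMM scaling (10.6%), with a median of -0.19. PRE3 was lowest at 0.02 ± 0.122 (-0.30 ± 0.062 with TMM scaling) and RPN13 highest at 0.28 ± 0.124. Without Med2_15_DMSO replicate C, 22 genes were called deposited and 15 with TMM scaling. The TMM count was 0 without Med2_15_3IAA replicate A or B or Med2_15_DMSO replicate A, 1 without Med2_15_DMSO replicate B and 2 without Med2_15_3IAA replicate C. With the letters as a block, which pairs these libraries, the counts were 1 deposited and 21 with TMM scaling. RPN4 had 352.6, 371.6 and 407.1 in DMSO and 458.3, 437.1 and 392.1 in 3IAA, overlapping, with 0.19 ± 0.117. It passed without Med2_15_DMSO replicate C, at 0.24. Against Med15 alone 0 genes differed by limma on either scale (0.62% and 0.34% of all genes), with SEM1 at -0.04 ± 0.245, RPN2 at 0.34 ± 0.224 and RPN4 at 0.19 ± 0.222.

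With Med5 depleted 0 genes were called by limma on either scale (0.701% and 0.763% of all genes). The letters pair these libraries, and with the block 4 genes were called deposited (SEM1, RPN11, PRE4 and RPN13) and 2 with TMM scaling (RPN4 and PRE4). RPN13 was lowest at -0.29 ± 0.103 and RPN7 highest at -0.04 ± 0.074. RPN4 had 231.5, 255.6 and 250.8 in DMSO and 274.6, 248.0 and 285.3 in 3IAA, 0.13 ± 0.082.

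With Med1 depleted 18 subunits fell on the deposited scale (38.0% of all genes changed), from -0.41 ± 0.11 in PRE6 to -0.16 ± 0.1 in PUP1, which did not pass, while with TMM scaling RPN4 alone was called (6.85%). The count of 18 rests on each library: it was 7 without Med1_3IAA replicate A or B, 1 without Med1_3IAA replicate C, 4 without Med1_DMSO replicate A, 0 without Med1_DMSO replicate B and 33 without Med1_DMSO replicate C. RPN4 had 257.7, 254.7 and 233.0 in DMSO and 234.0, 253.3 and 257.6 in 3IAA, 0.00 ± 0.113 deposited and 0.21 ± 0.051 with TMM scaling. The latter call was lost without Med1_3IAA replicate B (0.22) or C (0.18) or Med1_DMSO replicate A (0.19) or B (0.21).

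With Med1 and Med5 depleted 29 subunits fell on the deposited scale (78.7% of all genes changed), from -0.59 ± 0.167 in RPT1 to -0.28 ± 0.15 in PUP1, with 0 genes called by limma with TMM scaling (4.39%). The count was 19 without Med1_5_3IAA replicate A, 17 without B, 8 without C and 16 without Med1_5_DMSO replicate B. RPN4 had 262.2, 245.9 and 328.5 in DMSO and 222.8, 224.9 and 245.5 in 3IAA, or -0.26 ± 0.167, which passed without Med1_5_DMSO replicate A (-0.30). The difference from Med1 alone was called in 0 members and in 0.0% of all genes on either scale, with RPN8 at -0.33 ± 0.16, PRE6 at 0.12 ± 0.168 and RPN4 at -0.26 ± 0.181.

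Depletion of Med9, a middle subunit, was the 1 case in which subunits parted on both scales. On the deposited scale 13 subunits and RPN4 rose and 2 subunits fell (46.9% of all genes changed), and with TMM scaling 8 rose and 6 fell (49.7%). RPN6 was highest at 0.49 ± 0.065 (adjusted p = 2.15e-06, limma) and RPN9, also in the lid, lowest at -0.35 ± 0.07 (adjusted p = 0.000293). Both had libraries without overlap, and both kept their sign with TMM scaling at 0.38 ± 0.046 and -0.46 ± 0.051. RPN4 had 104.8, 110.8 and 107.3 in DMSO and 149.1, 148.1 and 140.9 in 3IAA, that is 0.44 ± 0.061 deposited and 0.33 ± 0.048 with TMM scaling.

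With the TID part of Med14 depleted 0 genes were called by limma on either scale (5.72% and 6.54% of all genes). RPN2 was lowest at -0.08 ± 0.137 and RPN11 highest at 0.21 ± 0.11. RPN4 had 109.7, 122.7 and 102.4 in DMSO and 153.0, 139.8 and 123.7 in 3IAA, above without overlap at 0.31 ± 0.131, and with the letters as a block, which pairs these libraries, it was the 1 gene called on each scale.

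Deletion of MED15 went with lower RPN4 relative to other genes. On the deposited scale 32 subunits were higher in med15del than in WT, with a median of 0.37, but all genes had a median of 0.52 and 92.9% of them changed. With TMM scaling 15 subunits were lower and 0 higher, with a median of -0.16 (45.9% of all genes changed). The 34-gene count of 16 was 8 without med15del replicate B, 7 without med15del replicate C and 9 without WT replicate A or B. PRE7 (0.57 ± 0.089), SEM1 (0.53 ± 0.095), PUP3 (0.49 ± 0.084) and PRE1 (0.48 ± 0.075) were highest on the deposited scale, and RPN8 (0.17 ± 0.087, not called), RPN10 (0.23 ± 0.09), PRE10 (0.24 ± 0.074) and PRE3 (0.24 ± 0.088) lowest. RPN8 was called lower with TMM scaling, at -0.33 ± 0.067. RPN4 had 40.27, 43.34 and 47.47 in WT and 43.05, 42.19 and 39.94 in med15del, overlapping at -0.06 ± 0.074 deposited, and -0.59 ± 0.055 with TMM scaling (adjusted p = 2.04e-05, limma). This was the 1 fall of RPN4 among the 28 comparisons on that scale.

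In med16del, which shares the WT libraries with med15del, PRE7 alone was called on the deposited scale, at 0.26 ± 0.104 (37.7% of all genes changed), and 7 subunits were lower with TMM scaling (39.5%). RPN12 fell below the filter and was not tested. The deposited count was 0 without med16del replicate A or B or any 1 WT library, and 2 without med16del replicate C, and the TMM count was 4 without med16del replicate B or WT replicate A. PRE4 was lowest at -0.12 ± 0.106. RPN4 had 50.86, 44.44 and 41.69 in med16del, 0.06 ± 0.114 deposited and -0.08 ± 0.056 with TMM scaling.

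In the mutants of the Med7, Med21 and Med6 genes all 33 subunits fell on the deposited scale. In med7N_del the median was -1.23 against -1.05 for all genes (99.3% changed), from -1.47 ± 0.115 in PRE3 to -0.97 ± 0.113 in RPN8. With TMM scaling 15 subunits were lower (36.3%), with counts over 34 genes of 16 in all, 5 without med7N_del replicate B, 9 without replicate C and 8 without Med7_WT replicate B. In Med7_EWE3, which shares the Med7_WT libraries, the median was -0.99 (97.6% of all genes changed), from -1.44 ± 0.13 in RPT4 to -0.63 ± 0.131 in PUP1. With TMM scaling 8 subunits were higher and 2 lower (46.8%), with RPT4 at -0.35 ± 0.068 and PUP1 at 0.45 ± 0.078. In Med21_EWE4 the median was -1.21 (98.7%), from -1.41 ± 0.194 in RPN3 to -0.99 ± 0.208 in RPN8, and RPN4 alone was called with TMM scaling (13.3%). In Med6_delH1 the median was -1.17 (99.8%), from -1.32 ± 0.139 in PRE3 to -0.95 ± 0.157 in PUP3, and again RPN4 alone was called with TMM scaling (21.3%).

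On the deposited scale RPN4 fell in Med6_delH1 and did not pass in the other 3 mutants. Med7_WT had 139.0, 149.1 and 153.6, med7N_del 125.5, 139.9 and 130.6, and Med7_EWE3 116.4 and 143.8. The changes were -0.16 ± 0.119 and -0.18 ± 0.138 deposited and 0.92 ± 0.076 and 0.92 ± 0.143 with TMM scaling. Without Med7_EWE3 replicate B the deposited value was -0.34 and passed. Med21_EWE4 had 130.9 and 185.5 against 141.1 and 177.5, or -0.02 ± 0.201 and 1.15 ± 0.116, and without its replicate B the deposited value was -0.27 and passed. Med6_delH1 had 104.3, 88.15 and 86.88 against 163.4, 133.6 and 135.9, or -0.63 ± 0.163 and 0.53 ± 0.06.

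Over the 28 signal comparisons RPN4 was called lower in 9, higher in 3 and not called in 16 on the deposited scale, with a range of -1.61 to 0.53. With TMM scaling it was called higher in 18, lower in 1 and not called in 9, with a range of -0.59 to 1.33. Counting the stress comparisons, RPN4 stood above every tested subunit in 23 of 32 comparisons on TMM-scaled values and below every one in 2. The 23 include comparisons in which RPN4 was not called, such as Med5 (0.196) and Med7 (0.284). How many other genes stand above every subunit was not counted. Among subunits the lowest was SEM1 in 7 of the 32 and PRE3 in 6. Some of these comparisons share control libraries.

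**Figure D5:**
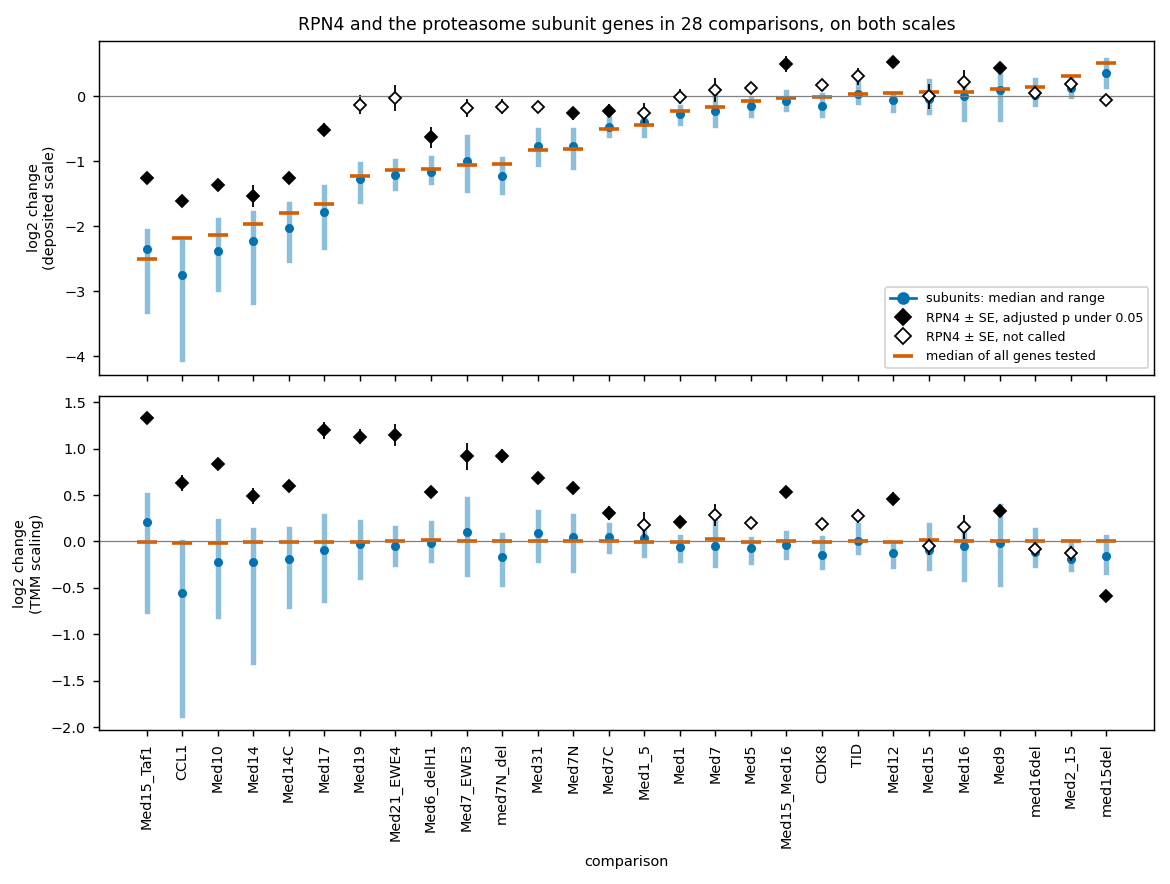
Log2 change on the deposited scale (top) and with TMM scaling (bottom) in the 28 signal comparisons (x axis); diamonds are RPN4 with its SE, filled where called, blue lines the range of the subunits with the median as a point, and orange bars the median of all genes tested. RPN4 lies above the blue range in most comparisons on the left, where the orange bars fall to -2.499 on the deposited scale, and below it in med15del.

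Other genes of protein breakdown moved unevenly in the same depletions. With TMM scaling, RAD23, a shuttle factor, was the lowest of its list with Ccl1 (-1.25 ± 0.062), Med10 (-0.53 ± 0.06) and Med17 (-0.63 ± 0.078) depleted, and DSK2 with Med14 (-0.84 ± 0.132). Of the 7 shuttle and Cdc48 genes 7, 5, 5 and 3 fell with Ccl1, Med10, Med14 and Med17, and 0 rose, while of all genes 37.9%, 36.6%, 28.6% and 28.6% fell. UBC4, a ubiquitin-conjugating enzyme, was the lowest ubiquitin gene in all 4, at -0.94 ± 0.069, -0.58 ± 0.062, -0.88 ± 0.085 and -0.48 ± 0.083, in lists of 10 tested genes in which 6, 4, 4 and 5 rose and 4, 3, 3 and 1 fell. Of all genes 36.8%, 36.1%, 28.6% and 26.3% rose in these comparisons. ECM29 was the lowest proteasome-associated gene at -1.03 ± 0.072, -1.14 ± 0.058, -1.17 ± 0.153 and -0.50 ± 0.087, and STS1 the highest at 1.14 ± 0.053, 0.50 ± 0.059, 0.36 ± 0.093 and 0.48 ± 0.064.

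The assembly chaperones are weakly transcribed, and 5, 6, 3 and 5 of 10 passed the filter in these comparisons. UMP1 was lowest with Ccl1 (-0.94 ± 0.086), TMA17 with Med10 (-1.03 ± 0.085) and Med14 (-1.05 ± 0.266), and RPN14 with Med17 (-0.73 ± 0.082). With Med15 and Taf1 depleted, 7 of 11 ubiquitin genes were higher, led by UBI4 at 0.91 ± 0.086, while 36.4% of all genes were, and UBC4 was again lowest at -0.69 ± 0.051. Of the regulators of RPN4, YAP1 was higher relative to other genes with Med10 (0.29 ± 0.05), Med17 (0.19 ± 0.066), Med19 (1.02 ± 0.051) and Med15 with Taf1 (0.40 ± 0.044) depleted, HSF1 with Ccl1 (0.33 ± 0.061), and PDR1 was lower with Ccl1 (-0.42 ± 0.087), Med10 (-0.53 ± 0.056), Med14 (-0.64 ± 0.079) and Med17 (-0.23 ± 0.07). In med15del PDR3 was lower, at -0.31 ± 0.075, beside the lower RPN4.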

How the data were processed

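Newly made RNA of 177 yeast libraries was analysed for 34 genes, which, like the related lists, were chosen with earlier results of these data known. Bowtie2, HTSeq and the builds sacCer3 and ASM294v2 are named, per the submitters' processing notes; versions and the role of the second build are not given in the sources used here. The authors deposited read counts for 15 libraries, and for 162 a signal with 2 decimals, scaled on a basis not stated. Whole reads were recovered for 106, with at least 96.52% of low values within 0.1 of a whole read, so a fit with edgeR on those reads was an added check. No libraries were identical (0 pairs) and 0 value columns were left unused.

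The mean signal had to reach 10 for a gene to be tested with limma 3.58.1 on log2(signal + 1), with a mean-variance trend, so low genes' changes are understated; counts were tested with edgeR 4.0.16, after its expression filter, over all 15 libraries (R 4.3.3). Adjusted p-values (Benjamini and Hochberg) over all genes had a threshold of 0.05. Other settings were TMM scaling, no filter, a pseudocount of 5, the replicate letter as a block, leaving out each library, DESeq2 1.42.0 for counts, and, chosen after seeing the data, TMM scaling with a block or with a library left out, and a 500-base promoter window. The steps were tested on simulated data. Letters paired the libraries in 15 of 32 comparisons (every same-letter correlation of deviations over 0.1). Sequences were read from RefSeq R64, the genome of sacCer3, in place of a promoter table. Motif forms with 1 base different were chosen after the exact matches were seen. Named genes were RPN4, the highest and lowest subunit on the deposited scale in each comparison, 4 of each in the main comparisons with any called gene of the other sign, and the called ends of each related list.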

Additional observations from a re-analysis of the deposited data

Results flagged for a closer look

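In 5 of the 34 genes the effect of Med15 depletion under HS differed from that under SM by a test of the difference itself (edgeR, adjusted over all genes). RPN4 differed by 0.76 on the log2 scale, since it was higher with Med15 depleted under HS and lower under SM, where its call was lost without any 1 of 4 libraries. RPN10 differed by 0.41, RPT4 by 0.33, PRE6 by 0.29 and PRE9 by 0.27, each of which fell under both stresses and less under HS. For the 4 subunits the share called is close to that of all genes in this direction, 14.5%.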

How the results depend on the processing

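Scaling was the choice on which most results turned, since TMM scaling by its construction removes the shift of the median gene that the deposited scale keeps. Of the 41 counts of changed or differing genes, 13 stayed within 1.5 times of the main count under every setting that changed 1 choice: those for depletion of Ccl1, Med10, Med14C, Med15, Med15 with Taf1 and Med9, for HS, for HS against SM, for Med15 depletion under HS, under SM and between the 2, and for Med1 with Med5 against Med1 and Med2 with Med15 against Med15. Of these, Med15 alone moved with 2 choices changed together, to 4 with TMM scaling and the block. A stable count does not mean a stable direction. With Med15 and Taf1 depleted, 34 genes were lower on the deposited scale, but 25 were higher and 3 lower with TMM scaling. With Med9 depleted, 14 were higher and 2 lower on the deposited scale, against 9 and 6 with TMM scaling. The counts of the stress comparisons had no fit on unscaled counts, so their stability does not cover the choice of scaling. Dropping the filter on low values or counts, a pseudocount of 5, DESeq2 and fits of only the compared groups changed no direction, no call of RPN4 and no count by over 1.5 times.

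With TMM scaling the count of changed genes among the 34 was 16 in med15del and med7N_del, 15 for Med14, 11 in Med7_EWE3, 9 for Med17 and Med19, 8 for Cdk8 and Med7N, 7 in med16del, 6 for Med2 with Med15, 5 for Med31, 2 for Med12 and for Med15 with Med16, 1 for Med1, Med16, Med7C, Med21_EWE4 and Med6_delH1, and 0 for Med1 with Med5. The differences gave 20 for Med15 with Taf1 against Med15, 8 for Med14 against Med15, 4 for Med19 against Med31, 2 for Med15 with Med16 against Med15 and 0 for Med7N against Med7C. RPN4 turned from below to above its control, or from near it to above, with log2 changes of 0.631 for Ccl1, 0.834 for Med10, 0.214 for Med1, 0.489 for Med14, 0.602 for Med14C, 1.334 for Med15 with Taf1, 1.197 for Med17, 1.129 for Med19, 0.683 for Med31, 0.303 for Med7C, 0.575 for Med7N, 0.919 in med7N_del, 0.917 in Med7_EWE3, 1.149 in Med21_EWE4 and 0.532 in Med6_delH1, and its differences with 1.385 for Med15 with Taf1 and 0.535 for Med14, each against Med15. The edgeR fit on recovered reads, which also uses TMM factors, counted 9 for Cdk8 and Med19, 6 for Med2 with Med15, 5 for Med31, 2 for Med15 with Med16, 1 for Med1, Med16 and Med21_EWE4, and 0 for Med1 with Med5. In it RPN4 had 0.215 for Med1, 1.137 for Med19, 0.687 for Med31 and 1.14 in Med21_EWE4.

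With the replicate letter as a block on the deposited scale, where letters pair the libraries, the counts were 2 for Med15 with Med16, 1 for Med16, 1 for Med2 with Med15, 4 for Med5 and 1 for TID. In the other comparisons the libraries share only a letter, and in 1 of 15 with 3 such pairs, Med9, every library correlated best with its own letter. There the block gave 12 for Cdk8 and 0 in med16del, and together with TMM scaling 15 for Cdk8, 5 for Med12, 3 for Med1, 10 in med15del, 7 in med7N_del and 2 in Med21_EWE4. It also let RPN4 pass under HS (-0.164) and for Cdk8 (0.179) and Med31 (-0.167). The paired fits changed no call of RPN4 or count by over 1.5 times beyond those given here and beside the results.

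Leaving out 1 library at a time moved the counts on the deposited scale over 0 to 4 for Cdk8, 0 to 33 for Med1, 8 to 30 for Med1 with Med5, 1 to 2 for Med15 with Med16, 0 to 1 for Med16, 0 to 22 for Med2 with Med15, 0 to 3 for Med7, 0 to 2 in med16del, 7 to 13 for SM, 1 to 20 for Med7N against Med7C and 16 to 33 for Med19 against Med31. The cause was not tested. Where a group of 2 lost a library, the lone one was assumed to vary like the other groups. For Med15 alone the SE was near 0.2 on the deposited scale without the block, which limits that fit. Depth is not known for 56 libraries.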
